A study of Mus musculus with 96 samples.

Results

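The ipsilateral thalamus of mice was examined 29 days after controlled cortical impact, in which a driven tip deforms the cortex through an opening in the skull to model traumatic brain injury (TBI), and candesartan was compared with vehicle in the injured animals. The comparison used the 8 libraries labelled for this region, time point and injury, out of 96 libraries in the series: 4 of injured mice given candesartan (TBI + CD) and 4 of injured mice given vehicle (TBI + VH). All mice were male C57BL/6 animals, which the methods give as 8 to 10 weeks old when obtained, so they were older at tissue collection. Candesartan was given at 0.1 mg/kg per day, first by injection 6 h after injury and then from an osmotic pump placed at 24 h, and vehicle mice received saline with sodium carbonate by the same routes. Sham mice given vehicle (Sham + VH) or candesartan (Sham + CD), 4 libraries each, had anesthesia and a scalp incision but no craniectomy, so the sham groups differ from the injured groups by the craniectomy as well as by the impact. The methods name the 4 samples with the best RNA of each group as the ones sequenced, which is a selection within each group.

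The thalamus relays sensory and motor signals to the cortex and receives projections back from it. It lies below the hippocampus, away from the impact, and after a cortical injury its relay neurons lose their targets over the following weeks while microglia and astrocytes around them become reactive. Candesartan blocks the angiotensin AT1 receptor, a G-protein-coupled receptor through which angiotensin II constricts vessels and promotes aldosterone release and inflammation, and some drugs of its class also partly activate the nuclear receptor PPAR-gamma. Because the tissue was sequenced in bulk, fewer cells of a type and less RNA per cell cannot be told apart in any level given here.

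Library totals ranged from 13596821 to 33713635 counts over the 16 thalamus libraries at 29 dpi (days post-injury), and from 18553235 to 33444751 over the 8 compared here. Thalamic relay neuron genes were present in all 8 libraries, with a summed level of 6020 to 7240 CPM (counts scaled to the size of the library) for the 20 genes of that list, and none of these genes was at 0. TBI + CD replicate 4 stood apart from the rest. It held the highest of the 8 values for 4597 of 16957 genes tested (27.1%) and the lowest for 24.9%, while the 7 other libraries each held the highest for 6.84% to 13.8% of genes. It also had the lowest summed level of nuclear long RNAs of the 8 (8620 CPM, against 10500 to 12500 CPM) and the highest of ribosomal protein genes (2560 CPM, against 2100 to 2230 CPM), and the part of this in the results was not tested. The libraries of a group came from separate mice, so the SDs below are the spread between libraries of separate animals. Standard errors of log2 fold changes come from the model fit, whose spread is estimated from all libraries of the fit, sham libraries included.

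No gene passed the test between TBI + CD and TBI + VH. Differentially expressed genes (DEGs) were genes with a false discovery rate (FDR) below 0.05 whose log2 fold change was larger than 0.32 in size, by the quasi-likelihood test of edgeR, and 0 of 16957 genes (0.0%) met this, with a smallest FDR of 0.933, so that every gene named below had an FDR of at least that value in this comparison unless another setting is given. At an unadjusted p under 0.05 there were 380 genes (2.24%), of which 251 (1.48%) were higher with candesartan and 129 (0.761%) lower. Without TBI + CD replicate 4 this split was 120 higher and 114 lower, of 17117 genes tested. The 4 values of each group did not overlap for 135 genes (0.796%) higher and for 125 genes (0.737%) lower with candesartan. DESeq2 called 1 gene (0.0059%), Malat1, and had 331 genes at an unadjusted p under 0.05. The log2 fold change was positive for 8826 genes (52.0%), and the median over all genes was 0.004. The 95% interval of the log2 fold change lay within 1 in either direction for 15245 genes (89.9%) and within 0.5 for 12121 genes (71.5%). Smaller differences were not resolved for many genes.

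**Figure D1:**
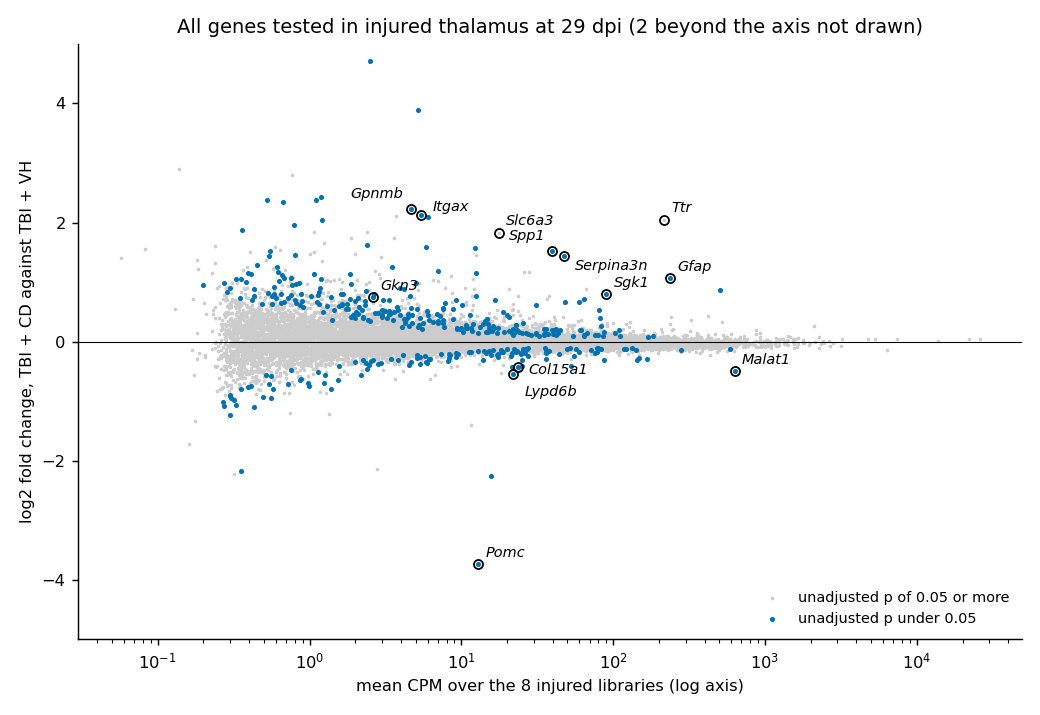
Log2 fold change of TBI + CD against TBI + VH for each gene tested (vertical axis) against its mean CPM over the 8 libraries (horizontal log axis), with genes at an unadjusted p under 0.05 in blue, some genes circled and named, and 2 genes beyond a log2 fold change of 5 not drawn. Malat1 sits at -0.50 among the abundant genes, and Gpnmb at 2.22 among those below 10 CPM.

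Malat1 had the smallest p of all genes. It is a long non-coding RNA retained in the nucleus, in speckles that hold splicing factors, and it lies at chr19:5795690-5802672 on the minus strand (mm10). Its level in the TBI + VH libraries was 770, 799, 680 and 716 CPM, a mean of 742 ± 53.1 (SD, n = 4). In the TBI + CD libraries it was 603, 534, 457 and 506 CPM, a mean of 525 ± 61.0 (SD, n = 4). Every candesartan library lay below every vehicle library, and replicate 4 was not the lowest. The log2 fold change was -0.50 with a standard error (SE) of 0.09 and a 95% interval of -0.69 to -0.30, with an edgeR FDR of 0.933. The FDR ranged from 0.0997 to 1 over the alternative edgeR settings, and DESeq2 gave 0.00182. The 10 other tested members of the list of nuclear long RNAs, which are also a mark of RNA quality and nuclear content, held no gene at an unadjusted p under 0.05. Of the 11 members, 2 had a positive log2 fold change and the median was -0.08. Neat1, the neighbour of Malat1 and the scaffold of nuclear paraspeckles, was at 20.0, 29.0, 27.7 and 24.8 CPM with vehicle and at 22.6, 18.6, 25.8 and 26.7 CPM with candesartan, a log2 fold change of -0.12 with an SE of 0.12. The candesartan libraries were not separated from the vehicle libraries for that gene.

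The 5 genes with the smallest p were Malat1 and 4 more. Col15a1, a collagen of vascular and other basement membranes, was at 25.0, 24.1, 26.3 and 33.0 CPM in TBI + VH and at 18.4, 21.0, 22.7 and 18.3 CPM in TBI + CD, which gave a log2 fold change of -0.43 (SE 0.10). Lypd6b, a membrane-anchored protein of the Ly6 family that acts on nicotinic acetylcholine receptors, was at 25.1, 22.0, 22.9 and 34.3 CPM with vehicle and at 17.8, 17.1, 16.4 and 20.5 CPM with candesartan. Its log2 fold change was -0.54 (SE 0.12). In both genes the groups were apart, and the vehicle library with the highest value was replicate 4. Plcxd2, which carries a phospholipase C-like domain, was at 193, 169, 166 and 210 CPM with vehicle and 158, 161, 142 and 144 CPM with candesartan, a log2 fold change of -0.29 (SE 0.07). Gkn3, a gastrokine gene that in the brain marks arterial endothelium, was at 1.47, 2.23, 2.02 and 2.19 CPM with vehicle and at 2.42, 2.96, 3.78 and 4.04 CPM with candesartan. Its log2 fold change was 0.74 (SE 0.18), and it was the only one of the 5 with a higher level in TBI + CD. Without TBI + CD replicate 4 the log2 fold changes were -0.48 for Malat1, -0.39 for Col15a1, -0.61 for Lypd6b, -0.27 for Plcxd2 and 0.64 for Gkn3.

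**Figure D2:**
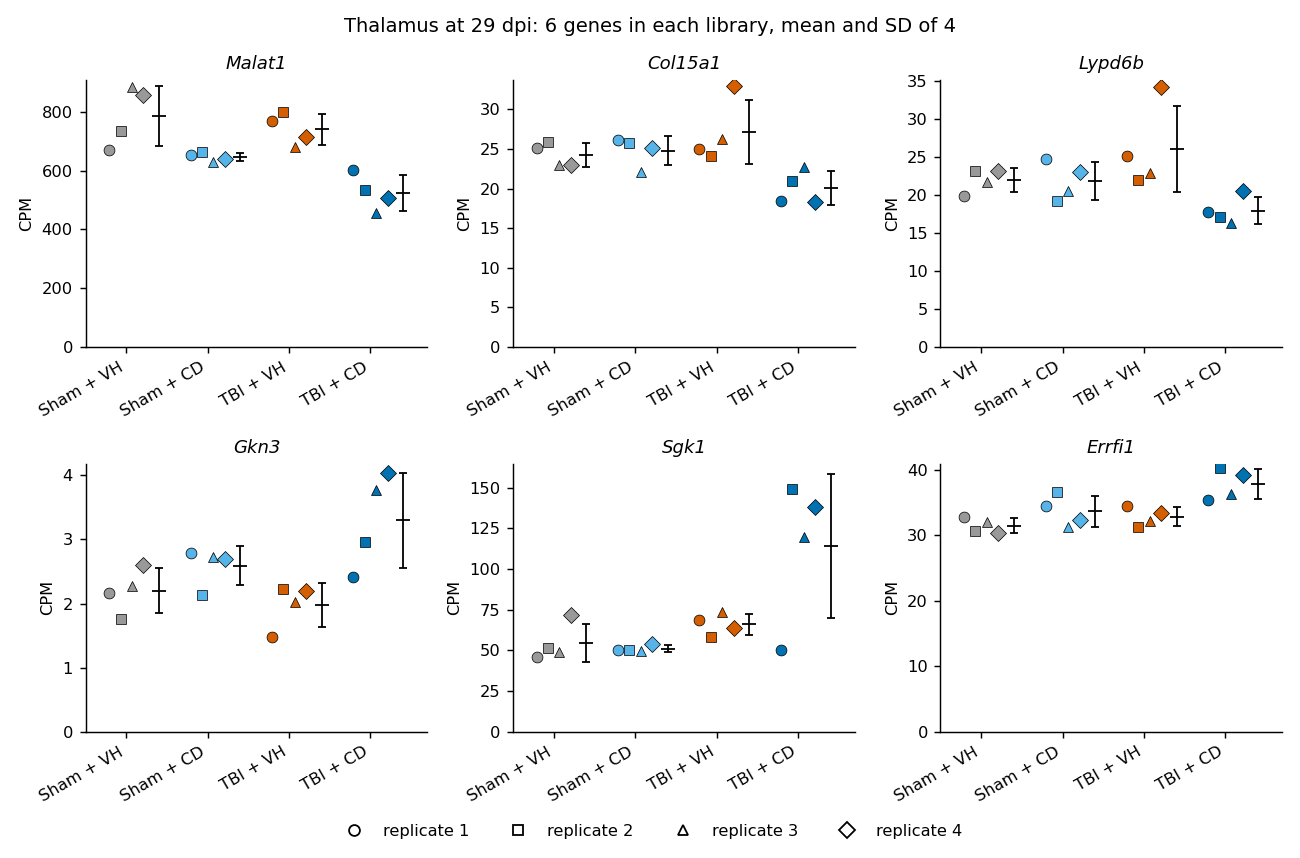
CPM of Malat1, Col15a1, Lypd6b, Gkn3, Sgk1 and Errfi1 in each library (points), with mean and SD, for the 4 thalamus groups at 29 dpi on linear axes. For Malat1 the TBI + CD libraries lie between 457 and 603 CPM and the TBI + VH libraries between 680 and 799 CPM, and for Sgk1 TBI + CD replicate 1 sits at 50.1 CPM beside 120, 138 and 149 CPM.

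Among genes averaging 1 CPM or more over the 8 libraries, with an unadjusted p under 0.05 and groups that did not overlap, 49 were higher and 47 were lower with candesartan. The 10 largest increases were led by H2-Aa, a class II histocompatibility chain, at a log2 fold change of 1.13, and by Gkn3. They included Tbxas1, thromboxane synthase, at 0.68, Map3k8, a kinase of inflammatory signalling also known as Tpl2, at 0.63, and Cmklr1, the receptor of the chemoattractant chemerin, at 0.53. Pctp, a phosphatidylcholine transfer protein, was at 0.54, and Slc1a5, a neutral amino acid transporter, at 0.39. The transcripts Gm3002 (0.58) and AK203706 (0.40) were also among them. For Tbxas1, Pctp and H2-Aa the highest library was TBI + CD replicate 4, and their log2 fold changes without it were 0.36, 0.32 and 0.55. Cmklr1 was at 2.56, 2.77, 2.39 and 2.03 CPM with vehicle and at 2.95, 3.32, 3.56 and 4.31 CPM with candesartan. Its level was low in every library, and its log2 fold change without replicate 4 was 0.43.

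The 10 largest decreases were smaller. They were mKIAA1994 (-0.64), Hmcn2, a large extracellular matrix protein (-0.55), Lypd6b, Malat1, Col15a1, AK013560 (-0.38), Pcdhgb4, a clustered protocadherin (-0.35), Fam69c (-0.34), Lgr6, a receptor for R-spondins (-0.32), and Tnfrsf22, a decoy receptor of the TNF family (-0.31). Hmcn2 was at 2.64, 2.62, 2.46 and 2.77 CPM with vehicle and at 2.37, 2.21, 1.55 and 0.957 CPM with candesartan, with its lowest value in TBI + CD replicate 4, and its log2 fold change without that library was -0.36. For AK013560 it was -0.25 without the same library. mKIAA1994 was at 3.08, 1.54, 1.52 and 1.42 CPM with vehicle and at 1.26, 1.30, 1.32 and 0.957 CPM with candesartan, and without TBI + VH replicate 1 its log2 fold change was -0.30. Reads of Pcdhgb4 are shared with other genes of the gamma cluster, whose constant exons are the same, and those of Gm3002 with near-identical copies, so that counting could have split them. Pomc, the precursor of several hypothalamic peptides, had one of the largest negative log2 fold changes at -3.74 but rested on 1 library, with TBI + VH at 1.26, 0.644, 0.995 and 93.5 CPM and TBI + CD at 0.918, 3.45, 1.14 and 1.49 CPM. The transcript AK218399 was at 4.38, 0, 4.45 and 4.29 CPM in TBI + VH and at 0 in all 4 TBI + CD libraries.

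Genes known to respond to glucocorticoids had mostly small positive values, which did not rest on replicate 4 alone. Glucocorticoid and mineralocorticoid receptors bind a palindrome of 2 half-sites near such genes, and Sgk1, a serum- and glucocorticoid-regulated kinase, is also a target of aldosterone in the kidney. Sgk1 spans chr10:21882184-21999903 (mm10) and has 6 annotated promoter windows in the RefSeq table (GRCm38.p6). The window at chr10:21993640-21993939 on the plus strand, shown because its gene carried the largest value of the group, held the letters of this palindrome (capitals) at position -188 from its start site:

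Sgk1: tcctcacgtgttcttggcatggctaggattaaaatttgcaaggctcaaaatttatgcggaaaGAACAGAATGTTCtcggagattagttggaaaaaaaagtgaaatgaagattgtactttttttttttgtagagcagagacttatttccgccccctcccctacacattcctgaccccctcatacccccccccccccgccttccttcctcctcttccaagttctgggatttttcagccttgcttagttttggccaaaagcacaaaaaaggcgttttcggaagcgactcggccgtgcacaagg

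The palindrome was searched on both strands as the half-sites GNACA and TGTNC with a spacer of 3 bases, where N is any base. It was in 3 of 33 windows of the 21 genes of the list that matched the table (9.09%) and in 156 of 32851 windows of all genes (0.475%). The list was built of genes known to respond to the hormone, and a match of letters does not show binding.

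Sgk1 was at 68.5, 57.9, 73.6 and 63.8 CPM in TBI + VH and at 50.1, 149, 120 and 138 CPM in TBI + CD. Replicates 2, 3 and 4 of TBI + CD lay above all vehicle libraries, and replicate 1 lay below all of them. The log2 fold change was 0.79 (SE 0.23, 95% interval 0.30 to 1.29), and it was 0.69 without replicate 4. Without TBI + CD replicate 1 it was 1.03 with an edgeR FDR of 0.0115, which was the only edgeR call of any setting in this comparison. Nfkbia, the inhibitor of NF-kB that glucocorticoids induce, was at 17.4, 16.6, 17.7 and 16.7 CPM with vehicle and at 16.4, 27.5, 21.9 and 26.9 CPM with candesartan (log2 fold change 0.44, SE 0.13). As for Sgk1, the candesartan library below the vehicle range was replicate 1. Errfi1, a feedback inhibitor of the EGF receptor, was at 34.5, 31.2, 32.1 and 33.4 CPM with vehicle and at 35.4, 40.3, 36.3 and 39.1 CPM with candesartan, with groups that did not overlap (log2 fold change 0.20, SE 0.06).

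Of the 25 tested members of the list, 21 had a positive log2 fold change and 5 were higher at an unadjusted p under 0.05, against 1.48% of all genes. The median was 0.20, and without replicate 4 it was 0.16 with 4 members at an unadjusted p under 0.05, against 119 of 16957 genes (0.702%). The groups did not overlap for 3 members, all higher with candesartan, against 0.796% of all genes. The remaining members at an unadjusted p under 0.05 were Tsc22d3, which encodes the glucocorticoid-induced leucine zipper, and Arl4d, a small GTPase. Tsc22d3 was at 74.2, 67.8, 80.8 and 80.6 CPM with vehicle and 76.6, 99.1, 86.2 and 103 CPM with candesartan, and both genes were chosen for naming after their values were seen. Fkbp5, a chaperone of the glucocorticoid receptor and a common readout of the hormone, was at 23.4, 21.8, 22.9 and 25.4 CPM with vehicle and at 26.4, 28.5, 23.6 and 23.1 CPM with candesartan, with overlapping groups and a log2 fold change of 0.12 (SE 0.10). Per2, a repressor of the circadian clock that is also induced by glucocorticoids, was at 25.8, 22.4, 20.7 and 21.9 CPM with vehicle and at 28.0, 28.4, 26.9 and 28.8 CPM with candesartan. Every candesartan library lay above every vehicle library for Per2 (log2 fold change 0.31, SE 0.10), while the 18 clock genes had a median of 0.03. Red blood cell genes, mostly hemoglobin chains, were also lowest in replicate 1 among the TBI + CD libraries. Their summed level was 9.85, 111, 95.2 and 87.5 CPM in TBI + CD and 11.3, 25.6, 33.2 and 65.4 CPM in TBI + VH, and the vehicle libraries ran in another order for Sgk1 than for these genes. The part of blood RNA in these values was not tested.

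Genes of reactive microglia had some of the largest values of the comparison, and these were carried by 1 library. Microglia, the resident macrophages of the brain, take on a state with high Itgax, Clec7a, Spp1, Gpnmb and lysosomal genes near damaged neurons and myelin. PU.1, the transcription factor that sets up the microglial lineage, binds purine-rich sites with the core GAGGAAGT. Among the 23 windows of the 20 list genes that matched the RefSeq table, 2 held this core (8.7%), against 1052 of 32851 windows of all genes (3.2%), with both strands searched. None of the 12 windows of 10 homeostatic microglia genes held it (0.0%), and 1 of 7 windows of complement genes did (14.3%). The 2 of the list are the windows of Spp1 (osteopontin, a secreted phosphoprotein) at chr5:104434861-104435160 and of Ctss (the lysosomal protease cathepsin S) at chr3:95526536-95526835, both on the plus strand of GRCm38.p6, shown with the core or its reverse complement in capitals:

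Spp1: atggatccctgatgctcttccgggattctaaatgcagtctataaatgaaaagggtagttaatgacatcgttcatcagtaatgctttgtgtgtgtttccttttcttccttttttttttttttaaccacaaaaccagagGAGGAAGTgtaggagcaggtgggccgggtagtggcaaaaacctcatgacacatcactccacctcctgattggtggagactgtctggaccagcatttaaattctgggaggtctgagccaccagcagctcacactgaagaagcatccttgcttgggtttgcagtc

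Ctss: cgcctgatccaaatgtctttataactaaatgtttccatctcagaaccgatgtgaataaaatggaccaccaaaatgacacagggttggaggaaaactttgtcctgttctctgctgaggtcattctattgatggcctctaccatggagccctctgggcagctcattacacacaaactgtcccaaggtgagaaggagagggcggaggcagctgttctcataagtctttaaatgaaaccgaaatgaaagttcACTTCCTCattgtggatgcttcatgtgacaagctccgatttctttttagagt

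Gpnmb, a lysosomal glycoprotein of phagocytic cells, was at 2.08, 1.64, 1.24 and 1.55 CPM in TBI + VH and at 1.40, 1.92, 4.01 and 23.6 CPM in TBI + CD. Spp1 was at 27.1, 19.6, 15.1 and 19.3 CPM with vehicle and at 16.3, 17.2, 35.5 and 166 CPM with candesartan. In both genes replicates 1 and 2 of TBI + CD lay in the vehicle range, replicate 3 above it and replicate 4 far above it. Itgax, the integrin CD11c, was at 3.50, 1.93, 0.871 and 1.71 CPM with vehicle and at 0.241, 2.31, 6.01 and 27.1 CPM with candesartan. Lyz2, the lysozyme of myeloid cells, was at 7.20, 8.52, 6.13 and 9.06 CPM with vehicle and at 8.21, 7.67, 11.9 and 41.5 CPM with candesartan. The log2 fold changes were 2.22 for Gpnmb (SE 0.69), 1.52 for Spp1 (SE 0.55), 2.13 for Itgax (SE 0.81) and 1.16 for Lyz2 (SE 0.42). Without replicate 4 they were 0.59, 0.18, 0.52 and 0.27.

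All 23 tested members of the reactive microglia list had a positive log2 fold change, with a median of 0.61, and 10 were higher at an unadjusted p under 0.05, against 1.48% of all genes. The groups did not overlap for any of the 23. TBI + CD replicate 4 was the highest of the 8 libraries in 22 of the 23, against 27.1% of all genes. Without that library the median was 0.07, 18 of the 23 were positive, and 0 were at an unadjusted p under 0.05. The summed level was 2590, 2730, 3180 and 4330 CPM in TBI + CD and 2700, 2920, 2910 and 2940 CPM in TBI + VH. The lowest candesartan library was thus below all vehicle libraries and the highest above all of them.

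**Figure D3:**
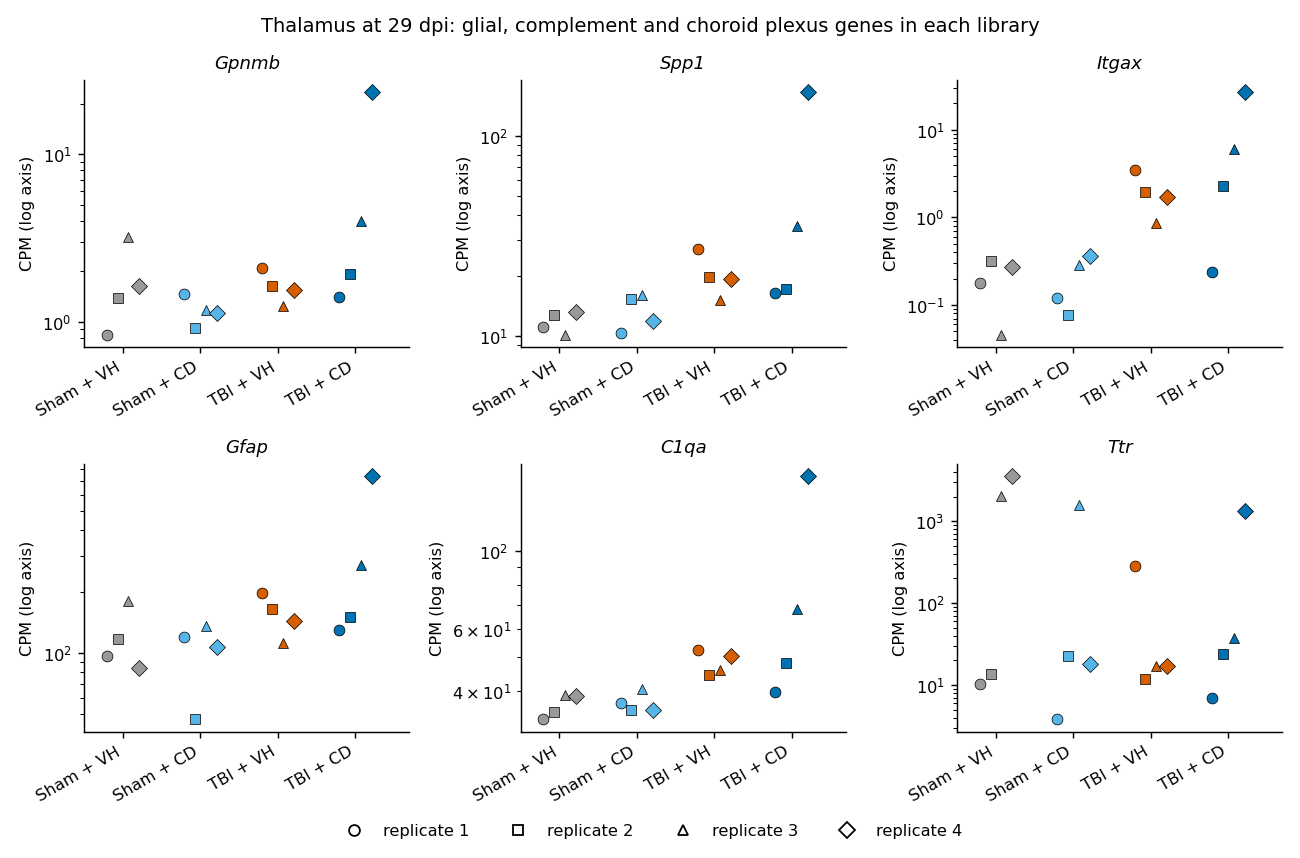
CPM of Gpnmb, Spp1, Itgax, Gfap, C1qa and Ttr in each library (symbols mark the replicate) on log axes, for the 4 thalamus groups at 29 dpi. TBI + CD replicate 4 is the highest of the injured libraries for all 6 genes, at 23.6 CPM for Gpnmb and 1320 CPM for Ttr.

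Complement and antigen presentation genes were also mostly highest in TBI + CD replicate 4, in 13 of 15 and in 13 of 14 members, against 27.1% of all genes. C1qa, a chain of the initiator C1q that microglia secrete, was at 52.3, 44.3, 45.9 and 50.3 CPM in TBI + VH and at 39.7, 48.0, 68.3 and 163 CPM in TBI + CD (log2 fold change 0.72, SE 0.30). C4b, a complement component made largely by glia, was at 28.6, 25.2, 23.6 and 20.6 CPM with vehicle and at 22.7, 24.9, 44.3 and 58.8 CPM with candesartan (log2 fold change 0.62, SE 0.27). Replicates 1 and 2 of TBI + CD lay within or below the vehicle range in both genes. The complement list had 14 of 15 members positive, 7 higher at an unadjusted p under 0.05 and a median of 0.44, where 52.0% of all genes were positive and 1.48% were higher at that p. Among these were C3ar1, the receptor of the fragment C3a, at 0.80 and Itgam, the integrin chain CD11b, at 0.28. Without replicate 4 the log2 fold changes were 0.11 for C1qa, 0.33 for C4b, 0.36 for C3ar1 and 0.18 for Itgam. The list median was then 0.11, with 0 members at an unadjusted p under 0.05. All 14 tested members of the antigen presentation list were positive, with 5 higher at an unadjusted p under 0.05 (1.48% of all genes) and a median of 0.35, which was 0.14 without replicate 4, with 0 members at that p. H2-Aa, the alpha chain of a class II molecule, was at 1.18, 1.04, 1.24 and 1.10 CPM with vehicle and at 1.69, 1.56, 1.78 and 5.16 CPM with candesartan, and it was the 1 member whose groups did not overlap, against 0.796% of all genes higher in that way. H2-Eb1, another class II chain, had a log2 fold change of 0.80, which was 0.44 without replicate 4. Class I and II genes share sequence within each class, so reads can be split between them. The interferon response list had a median of 0.13 and 1 of 20 members higher at an unadjusted p under 0.05 (1.48% of all genes), Ifit3, at 0.54 with an SE of 0.22 and at 0.30 without replicate 4, when 0 members were at that p.

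Genes that mark microglia at rest were highest in TBI + CD replicate 4 for 13 of 15 members, against 27.1% of all genes. Fcrls, an Fc receptor-like gene of microglia, was at 19.8, 15.2, 16.4 and 17.3 CPM with vehicle and at 12.4, 18.5, 22.7 and 53.4 CPM with candesartan, a log2 fold change of 0.63 (SE 0.30) that was 0.06 without replicate 4. P2ry12, a purine receptor lost on activation, was at 20.6, 24.7, 28.7 and 30.6 CPM with vehicle and at 26.7, 24.4, 29.5 and 34.4 CPM with candesartan, a log2 fold change of 0.13 (SE 0.12) that was 0.04 without replicate 4. Tmem119 had a log2 fold change of 0.08 (SE 0.10), and of -0.01 without it. The median of the 15 members was 0.23, and 0.01 without replicate 4, with Olfml3 as the 1 member higher at an unadjusted p under 0.05, against 1.48% of all genes. Its log2 fold change was 0.49 (SE 0.21), and 0.15 without replicate 4, when 0 members were at that p. Blood-derived macrophages and those of the brain's borders were represented by 7 tested genes, all positive, with a median of 0.53. Of the 7, 2 were higher at an unadjusted p under 0.05 (1.48% of all genes), Mrc1 and Pf4. Without replicate 4 the median was 0.21, with 0 members at that p. Mrc1, the mannose receptor of border macrophages, was at 2.88, 2.97, 2.98 and 3.61 CPM with vehicle and at 4.35, 2.99, 3.48 and 7.39 CPM with candesartan. Lymphocyte genes such as Cd3e and Cd3g were at or near 0 in all 8 libraries and were not tested. Of the 13 genes of the lymphocyte and neutrophil list 2 were tested, the neutrophil genes Ngp and S100a9, with overlapping groups and levels under 1 CPM in all 8 libraries. Their list had a summed level of 2.61, 1.11, 0.832 and 3.24 CPM in TBI + CD, and of 0.892 to 1.64 CPM in TBI + VH.

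Among astrocyte genes, TBI + CD replicate 4 was the highest library for 9 of 17 reactive and 10 of 16 homeostatic members, against 27.1% of all genes. Gfap, the intermediate filament that reactive astrocytes accumulate, was at 196, 164, 112 and 144 CPM in TBI + VH and at 130, 150, 271 and 738 CPM in TBI + CD. Serpina3n, a secreted protease inhibitor of reactive astrocytes, was at 32.2, 26.4, 21.6 and 21.9 CPM with vehicle and at 24.5, 26.0, 48.6 and 180 CPM with candesartan. Both were highest in replicate 4, next in replicate 3 and within the vehicle range in replicates 1 and 2. Their log2 fold changes were 1.06 (SE 0.46) and 1.44 (SE 0.48), and 0.26 and 0.38 without replicate 4. Vim, another filament of reactive glia, had a log2 fold change of 0.29 (SE 0.31), of 0.03 without replicate 4, and overlapping groups. Of the 17 members tested, 13 were positive (52.0% of all genes) and 3 were higher at an unadjusted p under 0.05 (1.48% of all genes), with a median of 0.29. Without replicate 4 the median was 0.05, with 11 members positive and 0 at that p. Genes of astrocyte metabolism and transport had a median of 0.02 over 16 members. Aqp4, the water channel of astrocyte endfeet, was at 234, 208, 174 and 203 CPM with vehicle and at 193, 218, 232 and 446 CPM with candesartan.

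**Figure D4:**
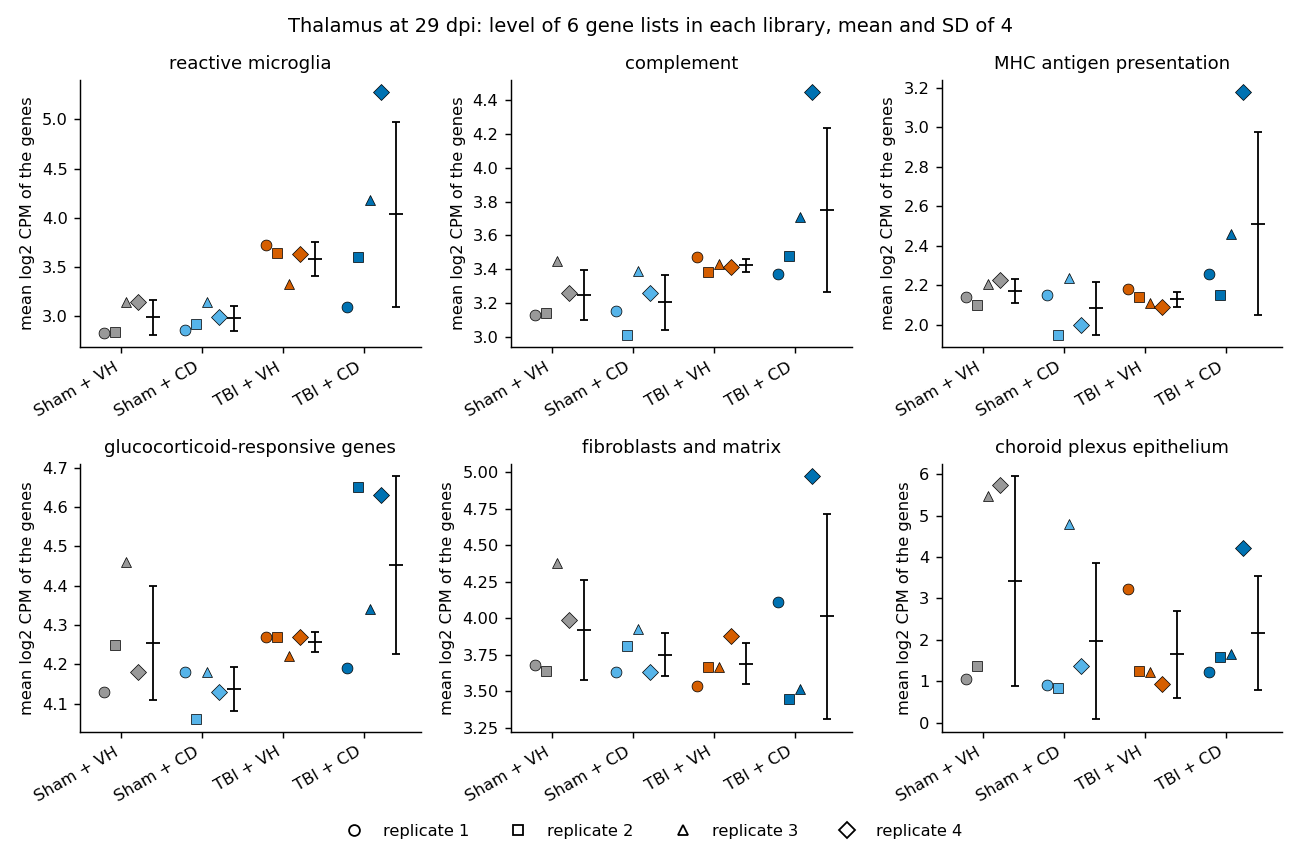
Mean log2 CPM of 6 gene lists in each library (symbols mark the replicate, bars the mean and SD of 4) for the 4 thalamus groups at 29 dpi: reactive microglia, complement, MHC antigen presentation, glucocorticoid-responsive genes, fibroblasts and matrix, and choroid plexus epithelium. TBI + CD replicate 4 is the highest injured library in the first 3 lists and in the fibroblast and choroid plexus lists.

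The same library also held more RNA of neighbouring structures. The summed level of 16 choroid plexus genes was 286, 301, 396 and 2240 CPM in TBI + CD and 767, 309, 315 and 338 CPM in TBI + VH. Ttr, transthyretin, the main secreted protein of that epithelium, was at 6.91, 23.6, 38.0 and 1320 CPM with candesartan and at 287, 11.7, 16.9 and 17.0 CPM with vehicle. TBI + CD replicate 4 and TBI + VH replicate 1 thus held the most choroid plexus RNA, and the list median moved from 0.66 to -0.51 without TBI + CD replicate 4. The 17 fibroblast and matrix genes summed to 813, 594, 610 and 2050 CPM with candesartan and to 594, 668, 650 and 761 CPM with vehicle, with 3 members higher at an unadjusted p under 0.05 (1.48% of all genes), 0 without replicate 4, and with Ogn, a matrix proteoglycan of the meninges, at a log2 fold change of 1.59 and 0.34 without replicate 4. Dsp, desmoplakin, which marks dentate granule neurons of the adjoining hippocampus among brain neurons, was at 1.59, 1.82, 2.04 and 18.7 CPM with candesartan and at 2.47, 1.19, 0.995 and 0.774 CPM with vehicle. The list of hippocampal and cortical neurons had a median of 0.41, and 0.15 without replicate 4, and it summed to 718 CPM in that library. In sham mice, Ttr was higher still in Sham + VH replicates 3 and 4 (2050 and 3530 CPM) and in Sham + CD replicate 3 (1600 CPM), where Gpnmb was at 3.19, 1.63 and 1.17 CPM and Gfap at 180, 84.3 and 135 CPM. Sham + VH replicate 3 also held more Dsp (29.3 CPM) and a higher sum of hippocampal and cortical neuron genes (902 CPM) than TBI + CD replicate 4, while its fibroblast and matrix sum was lower (999 CPM). The part of the RNA of these structures in the reactive glial values of TBI + CD replicate 4 was not tested.

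Other libraries carried RNA of the midbrain. The 10 dopamine neuron genes were all positive, with a median of 0.83, but 0 reached an unadjusted p under 0.05. Th, the rate-limiting enzyme of dopamine synthesis, was at 10.9, 9.76, 14.2 and 22.9 CPM with vehicle and at 56.1, 10.5, 32.4 and 8.61 CPM with candesartan. Slc6a3, the dopamine transporter, was at 0.323, 1.83, 11.3 and 17.4 CPM with vehicle and at 66.1, 1.53, 39.3 and 4.25 CPM with candesartan. Replicates 1 and 3 of TBI + CD were high and replicates 2 and 4 were not, and the list median was 0.31 without TBI + CD replicate 1. Without replicate 4 it was 1.07, with 3 of the 10 higher at an unadjusted p under 0.05, against 0.702% of all genes. Tac2, a tachykinin of the medial habenula, ranged from 19.4 to 64.2 CPM with vehicle and from 31.4 to 83.2 CPM with candesartan. Pmch, a hypothalamic peptide gene, was at 18.0 CPM in TBI + VH replicate 1 and between 125 and 336 CPM in the 7 other libraries.

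Differences in the targets of the drug were not resolved. Agtr1a, the main AT1 receptor gene, was at 0.617, 0.297, 0.498 and 0.387 CPM in TBI + VH and at 0.676, 0.325, 0.719 and 0.691 CPM in TBI + CD, a log2 fold change of 0.36 with an SE of 0.35 and a 95% interval of -0.38 to 1.11. Agtr1b, the second AT1 receptor gene of the mouse, had a log2 fold change of -0.24 (SE 0.37). Both receptors were under 1 CPM in every library, which limits what can be said of them. Of 16 tested genes of the renin-angiotensin system, 10 were positive, the median was 0.05 and 1 was higher at an unadjusted p under 0.05 (1.48% of all genes), the lysosomal carboxypeptidase Ctsa. It was at 98.6, 106, 114 and 146 CPM in TBI + CD, and its log2 fold change was 0.20 (SE 0.09) and 0.07 without replicate 4, when 0 members were at that p. The PPAR-gamma and lipid list had a median of 0.03 over 19 genes and 0 at an unadjusted p under 0.05, with Pparg itself at 0.36 (SE 0.27), at 0.17 without replicate 4, and below 1.6 CPM throughout. Pdk4, a kinase that restrains pyruvate oxidation and is induced by PPARs, had a log2 fold change of 0.19 (SE 0.09) with groups that did not overlap.

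Relay neuron genes of the thalamus differed by small amounts. Tcf7l2, a transcription factor of relay neurons, was at 330, 279, 289 and 285 CPM with vehicle and at 264, 334, 233 and 216 CPM with candesartan (log2 fold change -0.18, SE 0.11). Slc17a6, the vesicular glutamate transporter VGLUT2, had a log2 fold change of -0.10 (SE 0.10), and Cacna1g, the T-type calcium channel of burst firing, one of -0.19 (SE 0.09). Without replicate 4 these were -0.10 for Tcf7l2, -0.01 for Slc17a6 and -0.11 for Cacna1g. Of 20 relay neuron genes, 6 were positive, the median was -0.08 and 0 were at an unadjusted p under 0.05. The 13 genes of GABA neurons, which in the thalamus lie mostly in the reticular nucleus, were all positive with a median of 0.20, and of 0.25 without replicate 4, when 11 were positive. The 1 member higher at an unadjusted p under 0.05 (1.48% of all genes) was Spp1, which is also on the reactive microglia list. Gad1, an enzyme of GABA synthesis, was at 104, 223, 260 and 255 CPM with vehicle and at 248, 168, 306 and 317 CPM with candesartan. Vehicle replicate 1 was the lowest of the 8 for that gene. Kcnh7, an ERG-type potassium channel subunit, was at 7.25, 5.60, 6.41 and 8.41 CPM with vehicle and at 9.08, 8.13, 4.92 and 6.59 CPM with candesartan (log2 fold change 0.05, SE 0.18). Grin2b, the NMDA receptor subunit GluN2B, was the 1 of 24 transmitter receptor genes lower at an unadjusted p under 0.05 (0.761% of all genes), at -0.42 (SE 0.16) and at -0.38 without replicate 4, when 0 of them were at that p. The lists of synaptic vesicle genes, potassium channels, oligodendrocytes, endothelium and ribosomal proteins had medians between -0.06 and 0.08.

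**Figure D5:**
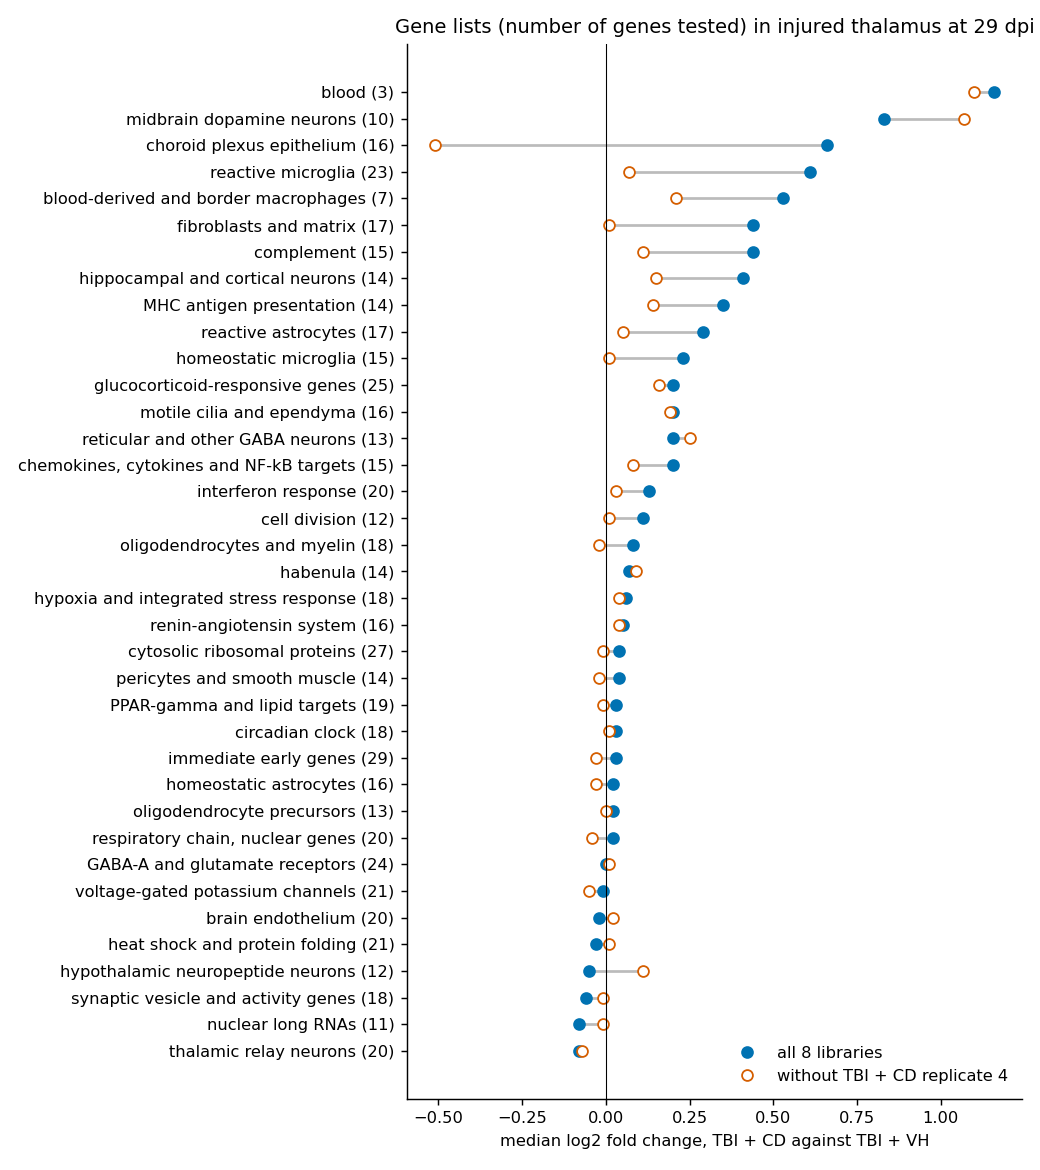
Median log2 fold change of TBI + CD against TBI + VH for 37 gene lists, with all 8 libraries (filled) and without TBI + CD replicate 4 (open), and the number of genes tested in parentheses. The median of the reactive microglia list is 0.61 with all libraries and 0.07 without replicate 4, whereas that of the glucocorticoid-responsive list is 0.20 and 0.16.

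Candesartan in sham mice was compared in the same fit, to see whether the drug acted without injury. edgeR called 0 of 16957 genes (0.0%), with 540 (3.18%) at an unadjusted p under 0.05, and DESeq2 called 1, the tubulin gene Tuba1c, which was high in 1 Sham + VH library (33.2 CPM, beside 2.08, 2.92 and 4.74). The test of whether the effect of candesartan differed between injured and sham mice also gave 0 calls (0.0%) by edgeR and by DESeq2, with 577 genes (3.4%) by edgeR and 561 by DESeq2 at an unadjusted p under 0.05. Of the 577, 350 (2.06% of genes tested) were more positive in injured mice. Malat1 was at 671, 734, 885 and 857 CPM in Sham + VH and at 654, 663, 630 and 639 CPM in Sham + CD, so all Sham + CD libraries were below all Sham + VH libraries here too. Its log2 fold change was -0.28 (SE 0.09) in sham mice, and the difference from injured mice was -0.21 (SE 0.13, edgeR FDR 0.999). For Col15a1, Lypd6b and Plcxd2 the sham log2 fold changes were 0.03, -0.01 and 0.04, and the differences were -0.46 (SE 0.14), -0.54 (SE 0.18) and -0.32 (SE 0.10). Gkn3 lay the same way in sham as in injured mice, at 0.23 (SE 0.19), with a difference of 0.51 (SE 0.26). Sgk1 had a sham log2 fold change of -0.11 and a difference of 0.90 (SE 0.33). In sham mice the 25 glucocorticoid-responsive genes had a median of -0.10, with 3 lower and 1 higher at an unadjusted p under 0.05. Over all 16957 genes, 296 were lower and 244 higher at that p in sham mice. Of the 25, 6 were more positive in injured mice at that p, against 2.06% of all genes, with a median difference of 0.29. The lower sham values enter these differences. None of these differences passed the FDR threshold.

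At 3 dpi candesartan had been given by daily injection, and the counts stand in another table, so time, route and table cannot be told apart. edgeR called 0 of 17172 genes (0.0%) for a difference between the candesartan effects at 29 and 3 dpi, with 405 (2.36%) at an unadjusted p under 0.05, and DESeq2 called Malat1 and AK218399, of which the latter was at 0 to 0.0586 CPM in the 8 libraries at 3 dpi and at 0 in TBI + CD at 29 dpi, so that its call rests on groups at or near 0. Malat1 was at 433, 425, 529 and 419 CPM in TBI + VH and at 610, 504, 584 and 423 CPM in TBI + CD at 3 dpi. There 2 of the 4 candesartan libraries lay above all vehicle libraries, with a log2 fold change of 0.23 (SE 0.11). The difference between the time points was -0.74 (SE 0.15, edgeR FDR 0.723). Col15a1 had a log2 fold change of 0.13 at 3 dpi and a difference of -0.57 (SE 0.15). For Gkn3 these were 0.02 (SE 0.20) and 0.72 (SE 0.27). Reactive microglia genes had a median of 0.04 at 3 dpi, with 14 of 21 tested members positive. Glucocorticoid-responsive genes had a median of 0.11 at 3 dpi, with 21 of 25 tested members positive. Of these 25, 0 differed between the time points at an unadjusted p under 0.05, against 2.36% of all genes.

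In the hippocampus at 29 dpi genes of reactive microglia lay the other way. The comparison of the candesartan effects in thalamus and hippocampus treated the libraries of the regions as independent, although they may come from the same mice. edgeR called 0 of 17528 genes (0.0%), with 867 (4.95%) at an unadjusted p under 0.05, of which 434 (2.48%) were more positive in the thalamus. DESeq2 called Tgm1, a transglutaminase, which was too low to be tested in the thalamus alone. Gpnmb was at 20.8, 17.7, 33.2 and 19.8 CPM in hippocampal TBI + VH and at 13.9, 12.3, 11.2 and 9.84 CPM in hippocampal TBI + CD. Those groups did not overlap, and the log2 fold change was -0.95 (SE 0.17) in the hippocampus beside 2.22 in the thalamus. The difference was 3.14 (SE 0.71, edgeR FDR 0.692) and 1.54 without thalamic TBI + CD replicate 4. Of the 23 reactive microglia genes, 1 was positive in the hippocampus, where the median was -0.33. For 17 of the 23 the effect was more positive in the thalamus at an unadjusted p under 0.05, and without replicate 4 it was so for 7, against 1.85% of all genes. Lyz2 had a log2 fold change of -0.94 in the hippocampus and a difference of 2.07 (SE 0.48), which was 1.20 without replicate 4. For Malat1 the values lay the same way in both regions. It was at 1220, 1190, 1230 and 1450 CPM in hippocampal TBI + VH and at 1080, 937, 822 and 714 CPM in hippocampal TBI + CD, again with groups that did not overlap. Its log2 fold change was -0.52 (SE 0.10) there and -0.50 in the thalamus, and the difference was 0.01 (SE 0.15, edgeR FDR 1). Gkn3 also lay the same way, at 0.60 (SE 0.24) in the hippocampus, where its groups overlapped, and 0.74 in the thalamus. Glucocorticoid-responsive genes had a median of 0.06 in the hippocampus, with 19 of 25 tested members positive.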

How the data were processed

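RNA was extracted from the ipsilateral thalamus and sequenced as paired-end, strand-selective mRNA libraries. The authors aligned reads to the mm10 genome using MapSplice and obtained gene-level reads from HTSeq 0.9.1. The tables the authors deposited hold these raw counts, as whole numbers, for 32594 gene symbols. The annotation and the strand setting of the counting are not given in the sources used here, so overlapping and antisense genes cannot be told apart.

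Counts of the 16 thalamus libraries at 29 dpi were filtered with filterByExpr, scaled by TMM and fitted by group with edgeR 4.0.16 in R 4.3.3, and its quasi-likelihood F test, adjusted by Benjamini-Hochberg, was the main test. DESeq2 1.42.0 was the alternative. The fits were tested on simulated data with planted changes. The interaction with injury came from the same fit, and comparisons with 3 dpi and with the hippocampus from fits of 32 libraries each. CPM are counts scaled to the effective library size, and a prior count of 2 was used on the log2 scale. Promoter sequences are RefSeq's for GRCm38.p6. Positions are from GENCODE vM21. Tables were made with Python 3.11.15, pandas 2.3.3 and numpy 2.4.6, and figures with matplotlib 3.10.9.

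Genes were named by a rule: called genes where a comparison had at most 10, the 5 smallest p, the 10 largest changes in each direction among genes averaging 1 CPM or more, with an unadjusted p under 0.05 and groups that did not overlap, the first 2 genes of each of 38 lists with the 2 tested members of smallest p, and Kcnh7, Vim, Lyz2, Gpnmb and C4b, which the study names. Of the 10 largest increases, 1 is not reported here. The comparison, the rule and the lists were chosen with earlier results of these data known. The alternatives were DESeq2, RLE size factors, no or a stricter filter, the FDR alone, the replicate number as a block, only the 8 libraries, robust estimates (chosen after seeing the data) and each library left out in turn. List values without TBI + CD replicate 4 were also added after seeing the data.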

Additional observations from a re-analysis of the deposited data

Results flagged for a closer look

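Within groups of 4, a library was singled out where its gap to the next value exceeded Dixon's 95% limit as a share of the whole range. Chance does this in about 1 in 20 groups where these are independent. Here 28 of 236 groups of values met it, of which 16 were TBI + CD replicate 4, but they share the same 8 libraries and many of the genes were chosen for their values, so the count is not to be read against that rate. In TBI + CD that replicate was the highest for Gpnmb (23.6 CPM), Spp1 (166 CPM), Lyz2 (41.5 CPM), Olfml3 (36.4 CPM), H2-Aa (5.16 CPM), H2-K1 (40.5 CPM) and Pctp (3.08 CPM). It was also the highest for the astrocyte genes Serpina3n (180 CPM) and Aqp4 (446 CPM), for the choroid plexus genes Ttr (1320 CPM) and Kl (36.4 CPM), and for Dsp (18.7 CPM). Its summed levels of fibroblast and matrix genes (2050 CPM) and of choroid plexus genes (2240 CPM) stood out as well. It was the lowest for AK013560 (1.75 CPM) and mKIAA1994 (0.957 CPM). The lowest Agtr1a value, 0.325 CPM, was in TBI + CD replicate 2.

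In TBI + VH, replicate 1 stood out for Ttr (287 CPM), Kl (12.9 CPM) and the choroid plexus sum (767 CPM), for mKIAA1994 (3.08 CPM), and by a low reactive microglia sum (2700 CPM). The sum is weighted to abundant members. By the mean log2 CPM of the reactive microglia genes replicate 1 was the highest of TBI + VH (3.72, beside 3.64, 3.33 and 3.63). Replicate 4 stood out by high Pomc (93.5 CPM), Ddc (24.3 CPM), Mrc1 (3.61 CPM) and cell division sum (48.0 CPM). Replicate 3 was low for AK203706 (1.74 CPM), and replicate 2 was at 0 CPM for AK218399.

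Mcm6, a subunit of the replicative helicase, differed in opposite directions in injured and sham mice. It was at 6.61, 6.69, 5.85 and 5.74 CPM in TBI + VH and at 7.25, 7.32, 6.81 and 9.62 CPM in TBI + CD, but at 6.19, 6.68, 8.53 and 6.70 CPM in Sham + VH and at 4.57, 4.89, 5.24 and 6.02 CPM in Sham + CD. The difference of the log2 fold changes was 0.75 (SE 0.19) with an edgeR FDR of 0.999, so it did not pass the correction.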

How the results depend on the processing

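The count of 0 DEGs in the injured thalamus was 1 with DESeq2 (Malat1) and ranged from 0 to 1 over the leave-one-out settings. The 1 was Sgk1 without TBI + CD replicate 1 (edgeR FDR 0.0115). With DESeq2 the sham comparison had 1 call, the difference from 3 dpi had 2, and the difference from the hippocampus had 1. Leaving out libraries gave 0 to 1 calls in the last, Tgm1 without TBI + CD replicate 2 (FDR 0.0424). Genes at an unadjusted p under 0.05 numbered 380 in the injured thalamus, 576 without a filter, 365 with robust estimates, and 621, 741 and 234 without TBI + CD replicates 1, 2 and 4. The labels do not say whether the replicate numbers pair the samples. Same-number correlations of deviations were -0.1833, 0.0679, 0.1845 and 0.1542, within the range of the other pairs (-0.3042 to 0.3774). So few values cannot exclude a pairing. With the replicate block all 5 comparisons kept 0 calls, with 453 genes at an unadjusted p under 0.05 in the injured thalamus.

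Log2 fold changes that turned sign were those of genes with overlapping groups or 1 high library. Over the leave-one-out settings they ranged from -0.01 to 0.13 for Tmem119, from -0.09 to 0.19 for Kcnh7, from -1.86 to 4.49 for Ttr, from -0.51 to 2.14 for Kl, from -4.36 to 0.84 for Pomc, from -0.32 to 4.33 for Tph2 and from -2.60 to 0.08 for Sspo. That of Ttr was -1.07 with the replicate block. The cause was not tested. Of the values of named genes, 1342 kept their direction and side of the threshold and 2, Malat1 and Sgk1 as above, passed it; of the list medians 549 moved by less than the spread between replicates and 6 by more. Genes under about 1 CPM, among them both AT1 receptors, were limited by depth.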

Other observations

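Transcripts of serotonin neurons were high in 1 library only. Tph2, the enzyme that starts serotonin synthesis in the brain, was at 37.3 CPM in TBI + CD replicate 1 and at 0.358, 0.454 and 0.798 CPM in the other TBI + CD libraries, with TBI + VH between 0.264 and 1.13 CPM. Slc6a4, the serotonin transporter, was at 18.6 CPM in the same library and at 0.195, 0.151 and 0.425 CPM in the others of its group. This library also held the highest Th and Slc6a3 values, which mark dopamine neurons of the midbrain. Sspo, a secreted protein of the subcommissural organ at the back of the third ventricle, was at 88.4 CPM in TBI + VH replicate 1 and between 4.31 and 6.31 CPM in the 7 other injured libraries. These genes were chosen for naming once their values were known.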
